A study of Mus musculus with 6 samples.

Results

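The genes described here are 8 of the insulin-like growth factor (IGF) system: the binding protein genes Igfbp2, Igfbp3, Igfbp4, Igfbp5, Igfbp6 and Igfbp7, the ligand gene Igf1 and the receptor gene Igf1r. They were chosen by name, and they are 8 of 28327 genes with a row in a single-cell table. Glomeruli came from kidneys of male CD1 IGS mice, an outbred stock, at 8 weeks of age. In 4 Drop-seq libraries, glomeruli had been dissociated to cells and fixed in 80% methanol. Drop-seq captures each cell with a barcoded bead in a droplet, and each unique molecular identifier (UMI) counts 1 captured transcript. A bulk library came from dissociated, sorted and fixed glomerular cells (95 ng of RNA) and another from whole isolated glomeruli, live and unfixed (500 ng of RNA). No group carries a mutation or a drug, and nothing in the labels says whether separate animals gave the libraries. P-values therefore speak only to the variation among these libraries, part or all of which may be technical.

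IGF1 and IGF2 are secreted growth factors that signal through the receptor tyrosine kinase encoded by Igf1r. IGF binding proteins hold these ligands outside the cell. They lengthen their life in the circulation and can block or aid their access to the receptor, and proteases such as PAPP-A release the ligand by cutting some of them. Igfbp7 encodes a secreted relative that is found in vessel walls and matrix and binds IGFs only weakly. A glomerulus is a capillary tuft held by mesangial cells, wrapped by podocytes and enclosed in a capsule of parietal epithelial cells, with arterioles and a distal tubule at its pole.

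The promoters of Igfbp7, Igfbp5, Igfbp4 and Igfbp2 are shown first, because the RNA levels of these members differed between the cell types below. Other members differed too, and their promoters are not shown. All 8 genes matched a RefSeq entry by symbol (build GRCm38.p6), and each window runs from 250 bases before to 50 bases after the start. Letters are 5′ to 3′ on the gene's strand, with matches on either strand to TATAAA or GGGCGG in capitals. Igfbp7 (chr5:77407996-77408295, minus strand, GC content 73.3%) holds 4 GGGCGG matches. Igfbp5 (chr1:72874816-72875115, minus strand, GC content 56.3%) holds neither motif. Igfbp4 (chr11:99040994-99041293, plus strand, GC content 71.3%) holds 1 TATAAA match. Igfbp2 (chr1:72824230-72824529, plus strand, GC content 67%) holds 3 GGGCGG matches. Another RefSeq start of Igfbp2 has a window (chr1:72825137-72825436, GC content 57.3%) that holds neither motif and is not shown.
Igfbp7: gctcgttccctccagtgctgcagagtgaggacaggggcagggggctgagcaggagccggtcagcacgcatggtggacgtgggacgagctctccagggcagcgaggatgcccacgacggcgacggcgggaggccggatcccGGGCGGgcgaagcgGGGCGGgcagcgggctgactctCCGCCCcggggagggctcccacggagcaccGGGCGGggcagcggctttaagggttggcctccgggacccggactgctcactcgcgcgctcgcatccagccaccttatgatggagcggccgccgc
Igfbp5: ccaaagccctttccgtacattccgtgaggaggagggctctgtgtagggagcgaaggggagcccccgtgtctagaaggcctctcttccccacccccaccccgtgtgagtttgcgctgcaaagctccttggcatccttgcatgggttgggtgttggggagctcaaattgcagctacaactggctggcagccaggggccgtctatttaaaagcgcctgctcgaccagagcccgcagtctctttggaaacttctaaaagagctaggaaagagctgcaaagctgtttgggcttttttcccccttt
Igfbp4: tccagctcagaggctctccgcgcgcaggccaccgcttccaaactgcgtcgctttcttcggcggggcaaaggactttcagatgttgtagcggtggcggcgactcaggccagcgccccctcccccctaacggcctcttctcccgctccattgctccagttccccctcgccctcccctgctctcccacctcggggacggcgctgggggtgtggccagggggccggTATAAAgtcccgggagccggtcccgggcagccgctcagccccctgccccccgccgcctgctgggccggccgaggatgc
Igfbp2: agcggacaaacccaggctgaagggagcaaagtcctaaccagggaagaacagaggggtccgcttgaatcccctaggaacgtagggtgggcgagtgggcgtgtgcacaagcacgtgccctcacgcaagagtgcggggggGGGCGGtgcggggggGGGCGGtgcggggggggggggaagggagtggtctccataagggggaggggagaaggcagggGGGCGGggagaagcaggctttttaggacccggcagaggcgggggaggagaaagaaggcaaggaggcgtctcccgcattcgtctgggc
Among 32851 such windows, TATAAA occurs in 13.6% and GGGCGG in 35.7%, so these matches describe the letters and do not set the genes apart. In the GENCODE annotation of GRCm38, Igfbp2 (chr1:72824503-72852474, plus strand) and Igfbp5 (chr1:72857932-72874884, minus strand) are neighbours, tail to tail, with 5457 bases and 0 other genes between them. Igfbp3 (chr11:7206086-7213923, minus strand) and Igfbp4 (chr11:99041244-99054392, plus strand) lie far apart on chromosome 11. Igfbp6 lies at chr15:102144362-102149511 (plus strand), Igfbp7 at chr5:77349240-77408041 (minus strand), Igf1 at chr10:87858265-87937042 (plus strand) and Igf1r at chr7:67952827-68233668 (plus strand).

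The 4 libraries gave 15465 barcodes and 3528543 to 6411775 UMIs each. A barcode was kept if it had 300 genes or more and no more than 20% of its UMIs on mitochondrial genes, which left 13993, with a median of 816 to 1156 UMIs by library. Clustering with the members and 56 other IGF pathway genes held out gave 10642 podocyte-like, 1846 endothelial-like, 910 tubular-like, 318 mural-like and 234 parietal epithelial-like cells, and 43 immune-like cells that were too few to test. Levels are UMIs scaled to the total of a library's cells of that type (CPM), given for replicates 1 to 4. The fit tested 7700 genes, 6 of the 8 members among them, since Igfbp3 and Igfbp6 had too few UMIs. It set each type against the mean of the others with edgeR's quasi-likelihood test, p-values were adjusted by Benjamini-Hochberg over all 7700 genes, and the threshold was 0.05.

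Igfbp7 was highest in podocyte-like and parietal epithelial-like cells. It reached 10295, 11355, 10437 and 10220 CPM in podocyte-like cells, and 90.25% of its 153926 UMIs in kept cells lay there, beside 75.9% of all UMIs of kept cells. Igfbp7 was detected in 99.7% of podocyte-like cells (median depth 1017 UMIs), against 27.9% of immune-like cells (median depth 644 UMIs), which serve here as the background. Parietal epithelial-like cells came next at 8004, 10468, 9398 and 9740 CPM, a range that overlaps the podocyte-like one. Mural-like cells had 7045, 4858, 4657 and 5348 CPM and tubular-like cells 3741, 4368, 3299 and 3778 CPM, and these ranges do not overlap each other. Endothelial-like cells were lowest of the tested types at 2288, 1737, 1494 and 1288 CPM. Against the mean of the other types, Igfbp7 was higher in podocyte-like cells (log2 fold change 1.31, SE 0.0802, adjusted p = 6.42e-27) and in parietal epithelial-like cells (0.93, SE 0.0881, adjusted p = 3.2e-15), and lower in endothelial-like cells (-1.97, SE 0.103, adjusted p = 8.0e-32), each in 4 of 4 libraries. The parietal epithelial call depends on what it is set against: with all other cells summed, most of them podocyte-like, its log2 fold change was -0.15 with an adjusted p of 0.442. In mural-like cells the difference did not pass (edgeR adjusted p = 0.803). In tubular-like cells a log2 fold change of -0.23 (edgeR adjusted p = 0.0282) did not hold up: without any 1 library the adjusted p was 0.06 to 0.619.

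Podocyte transcripts were present in the other cell types too. The 9 podocyte markers summed to 47.7% ± 4.73 of their podocyte-like level in parietal epithelial-like cells, where Igfbp7 stood at 88.8% ± 7.69 (SD, n = 4 each). In mural-like cells the markers stood at 13.7% ± 6.49 and Igfbp7 at 52.0% ± 11.7, and in tubular-like cells the markers stood at 7.92% ± 2.08 and Igfbp7 at 35.8% ± 2.96. In these 3 types, Igfbp7 kept a larger share of its podocyte-like level than the markers did in every library. In endothelial-like cells Igfbp7 stood at 16.1% ± 4.22 and the markers at 19.0% ± 3.71, and in immune-like cells at 9.35% ± 2.13 and 8.71% ± 5.70, so in those types Igfbp7 was at about the marker level. The endothelial-like value does not describe most of these cells. A group of 204 of them that also carried podocyte markers (subcluster 0 below) held 1859 of their 2424 Igfbp7 UMIs. The other endothelial-like subclusters averaged 268 to 570 CPM. The part of podocyte transcripts in the lower levels of Igfbp7 was not tested.

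**Figure D1:**
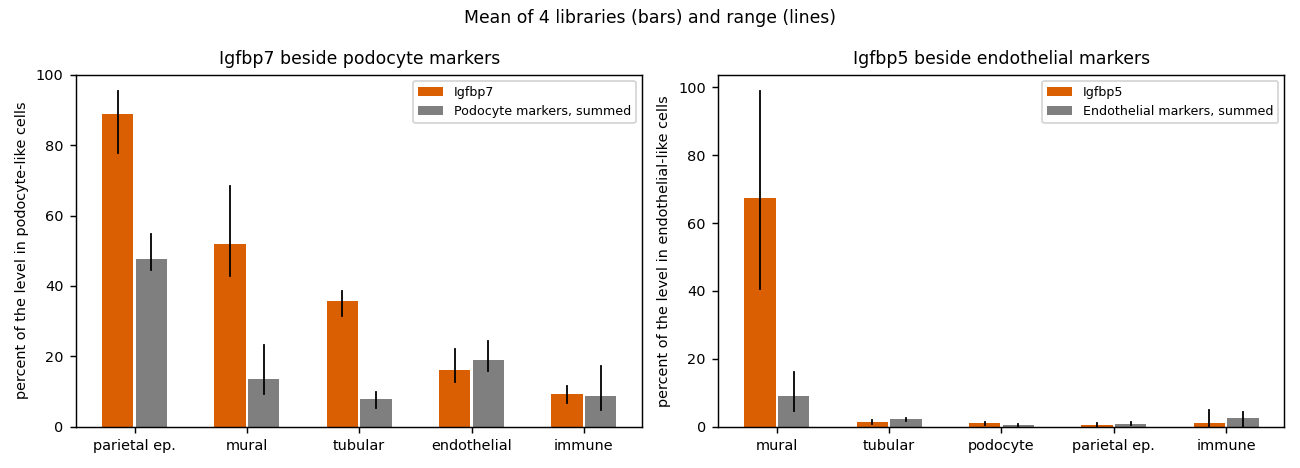
Level of Igfbp7 and of the summed podocyte markers as a percent of podocyte-like cells (left), and of Igfbp5 and the summed endothelial markers as a percent of endothelial-like cells (right). Bars are means of 4 libraries and lines their range. Igfbp7 stands above the markers in parietal epithelial-like, mural-like and tubular-like cells, and Igfbp5 stands above the endothelial markers in mural-like cells, at 67.3% beside 9.15%.

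Igfbp5 was high in endothelial-like and mural-like cells. Igfbp5 encodes a secreted binding protein that also attaches to matrix. It reached 1195, 1263, 1835 and 1683 CPM in endothelial-like cells and 1181, 831, 745 and 1078 CPM in mural-like cells, against at most 36.6 CPM in any library of tubular-like, podocyte-like or parietal epithelial-like cells. No library of the vascular types overlapped those of the epithelial types. Endothelial-like cells held 80.85% of its UMIs, beside 8.42% of all UMIs of kept cells, and 47.7% of them had an Igfbp5 UMI (median depth 638.5 UMIs), against 1.49% of podocyte-like cells (median depth 1017 UMIs). Igfbp5 was higher in endothelial-like cells (log2 fold change 5.24, SE 0.128, adjusted p = 2.78e-57) and in mural-like cells (4.28, SE 0.196, adjusted p = 1.49e-35) by edgeR. It was lower in parietal epithelial-like cells (-4.47, with 2 UMIs in all), podocyte-like cells (-3.17) and tubular-like cells (-1.89), with adjusted p from 1.55e-08 to 0.00261. The tubular call was lost with at least 500 genes per cell (adjusted p = 0.0708). The 10 endothelial markers summed to 9.15% ± 4.92 of their endothelial-like level in mural-like cells, where Igfbp5 stood at 67.3% ± 23.9 (SD, n = 4 each). Plvap was the exception among those markers, at 204% of its endothelial-like level.

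Igfbp4, which encodes a binding protein that PAPP-A cleaves, was also highest by mean in mural-like and endothelial-like cells, at far fewer UMIs. Mural-like cells had 188, 75.5, 127 and 71.2 CPM from 36 UMIs, and endothelial-like cells had 39.9, 66.5, 50.4 and 71.7 CPM from 81 UMIs. These ranges overlap, so their order is not resolved. Podocyte-like cells averaged 0.551 ± 0.449 CPM from 7 UMIs and tubular-like cells 2.89 ± 2.34 CPM from 4 UMIs (SD, n = 4 each). By edgeR, Igfbp4 was higher in mural-like cells (log2 fold change 3.87, SE 0.446, adjusted p = 5.39e-12) and endothelial-like cells (2.78, SE 0.343, adjusted p = 2.57e-11). It was lower in podocyte-like cells (-5.22, SE 0.629, adjusted p = 1.21e-11) and tubular-like cells (-2.83, SE 0.683, adjusted p = 0.000252). Parietal epithelial-like cells had 30.9 ± 15.96 CPM from 8 UMIs (edgeR adjusted p = 0.201). Their range of 15.4 to 52.7 CPM by library overlaps the endothelial-like one, so Igfbp4 did not divide these types as Igfbp5 did.

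Igfbp2 lay mostly in parietal epithelial-like cells. It had 143, 189, 169 and 193 CPM there and at most 1.29 CPM in any library of podocyte-like cells, and it had 0 UMIs in endothelial-like, mural-like, tubular-like and immune-like cells. Of its 54 UMIs, 46 fell in 20 of the 234 parietal epithelial-like cells, with up to 6 in 1 cell. That is 8.55% of these cells (median depth 957.5 UMIs), against 0.0658% of podocyte-like cells (median depth 1017 UMIs). It entered the fit through these cells alone, so its p-value is not given. With 3 UMIs over the group as the floor for a count of 0, its level was at least 119-fold higher than in tubular-like cells, at least 82.3-fold higher than in endothelial-like cells and at least 16.9-fold higher than in mural-like cells. Over podocyte-like cells the ratio of pooled levels was 278 (95% counting interval 130 to 683, counting error only). Igfbp2 and Igfbp5, neighbours on chromosome 1, were thus high in types that did not overlap: Igfbp5 had 2 UMIs where Igfbp2 had 46, and Igfbp2 had 0 UMIs in endothelial-like and mural-like cells, where Igfbp5 had 2225 and 299.

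Igfbp6 and Igfbp3 had few UMIs and were not tested. Igfbp6, which encodes a binding protein that prefers IGF2, had 71.7, 15.8, 15.4 and 52.7 CPM in parietal epithelial-like cells from 11 UMIs, against 0.910, 1.13, 0.860 and 1.01 CPM in podocyte-like cells from 13 UMIs. The pooled ratio was 40.9 (95% counting interval 16.6 to 99.0). Mural-like and endothelial-like cells had 1 Igfbp6 UMI each, and tubular-like cells had 0. The mural-like UMI gave 25.2 CPM in replicate 2, and the pooled ratio over mural-like cells was 12.1 (95% counting interval 1.76 to 522). Igfbp3, which encodes the main IGF carrier in plasma, had 65 of its 73 UMIs in endothelial-like cells. Its levels there were 11.4, 39.1, 27.3 and 105 CPM, so the libraries differed widely and replicate 4 was highest. Podocyte-like cells had 4 Igfbp3 UMIs, tubular-like cells 3, mural-like cells 1 and parietal epithelial-like cells 0. The pooled ratio of endothelial-like over podocyte-like cells was 147 (95% counting interval 54.6 to 554).

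Most UMIs of the ligand gene Igf1 lay in tubular-like cells. Tubular-like cells had 5.73, 38.7, 30.5 and 19.6 CPM and held 60 of its 75 UMIs, against 7 UMIs in endothelial-like cells (6 of them in replicate 4), 4 in podocyte-like cells, 2 in mural-like cells and 2 in parietal epithelial-like cells. An Igf1 UMI was found in 5.38% of tubular-like cells (median depth 1830 UMIs), against 0.0376% of podocyte-like cells (median depth 1017 UMIs). The pooled level in tubular-like cells was 93.4 times that in podocyte-like cells (95% counting interval 34.6 to 354), 5.92 times that in endothelial-like cells (2.70 to 15.3), 4.26 times that in mural-like cells (1.13 to 35.9) and 3.86 times that in parietal epithelial-like cells (1.02 to 32.6). Igf1 entered the fit on 4 library sums, 2 of them tubular-like, so its p-values are not given. Igf1 overlaps the antisense gene Igf1os, and Igfbp7 overlaps Polr2b and the antisense gene Gm34648 on the opposite strand. Whether counting used strand is not given in the sources used here, so reads of each pair might not be told apart.

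The receptor gene Igf1r was found in every tested cell type. Podocyte-like cells were highest by mean, at 158, 167, 202 and 189 CPM. Mural-like cells had 188, 176, 127 and 102 CPM, parietal epithelial-like cells 95.6, 142, 138 and 123 CPM, endothelial-like cells 114, 106, 109 and 71.7 CPM, and tubular-like cells 71.6, 77.5, 76.2 and 50.3 CPM. Mural-like cells stood above podocyte-like cells in replicates 1 and 2, and neighbours in this order overlap in their ranges. Only the ends passed edgeR's test: Igf1r was higher in podocyte-like cells (log2 fold change 0.74, SE 0.118, adjusted p = 9.9e-08) and lower in tubular-like cells (-0.59, SE 0.173, adjusted p = 0.00242), each in 4 of 4 libraries. Without cells carrying another type's markers, the tubular difference was -0.39 with an adjusted p of 0.0838.

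**Figure D2:**
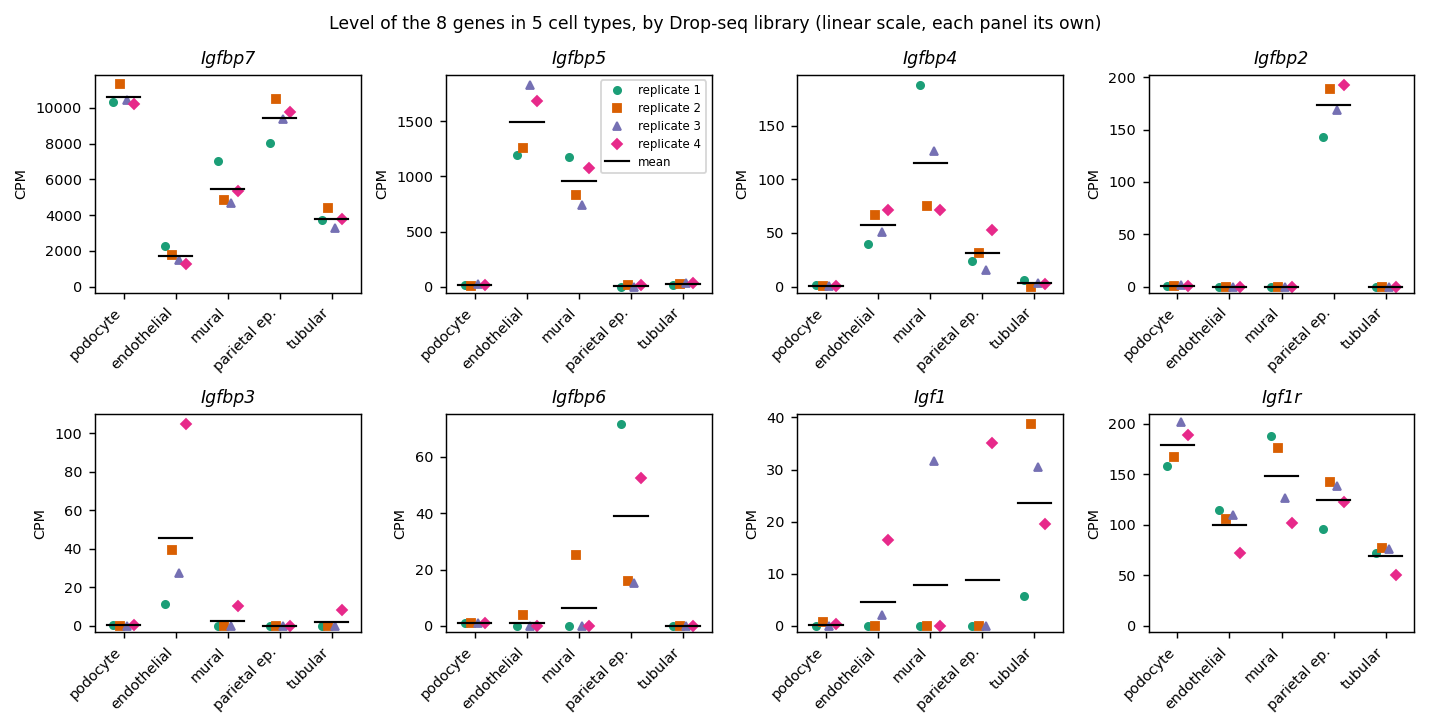
Level of each of the 8 genes (CPM, linear axis, each panel with its own scale) in 5 cell types, with a point per Drop-seq library and a line at the mean of 4. Igfbp7 is high in podocyte-like and parietal epithelial-like cells, Igfbp5 and Igfbp4 in the vascular types, Igfbp2 in parietal epithelial-like cells, Igfbp3 in endothelial-like cells and Igf1 in tubular-like cells.

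Each count of calls stands here beside the share of all 7700 genes called in that cell type. Of the 6 members tested, 2 were higher and 3 lower in podocyte-like cells, against 26.0% and 19.5% of all genes. The counts were 2 higher and 1 lower in endothelial-like cells, against 27.7% and 19.2% of all genes. In mural-like cells 2 were higher, against 11.8% of all genes (8.95% were lower), and in parietal epithelial-like cells 2 were higher and 1 lower, against 8.08% and 3.08%. In tubular-like cells 1 was higher and 4 lower, against 26.8% and 25.1%. The higher calls of Igfbp2 in parietal epithelial-like cells and of Igf1 in tubular-like cells, and the lower call of Igf1 in podocyte-like cells, are among these counts, although both genes entered the fit mainly through the type where they are high. With 6 members tested, such counts do not set the list apart from other genes. The split of all genes into higher and lower moved with the scaling. With DESeq2 it was 1359 and 2231 in podocyte-like cells, in place of 2003 and 1501, and 1041 and 373 in mural-like cells, in place of 905 and 689. With total UMIs only it was 1578 and 2901 in tubular-like cells, in place of 2063 and 1930, 788 and 148 in parietal epithelial-like cells, in place of 622 and 237, and 1054 and 390 in mural-like cells.

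The endothelial-like cells were not uniform, and the binding proteins divided them. Clustered again without these genes, they gave 5 subclusters. Subclusters 2 (696 cells) and 3 (349 cells) were glomerular capillary-like, with capillary markers Ehd3, Plat, Nostrin, Tspan7 and Lpl summing to 5529 and 5594 CPM, against 548 CPM in subcluster 4. Subcluster 3 was led by stress and early response genes such as Hspa1a and Hsph1. Subcluster 4 (152 cells) was arterial-like, with 3521 CPM of arterial markers such as Sox17, Gja5 and Fbln5, against 444 to 1649 CPM in the others. Subcluster 1 (445 cells) was given no name, and subcluster 0 (204 cells) carried podocyte markers at 14797 CPM, against 1393 to 1603 CPM in the others. The fit tested 1887 genes, 4 of the members among them.

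Igfbp5 was high in the capillary-like cells and nearly undetected in the arterial-like ones. It had 0, 0, 43.5 and 101.3 CPM in arterial-like subcluster 4, from 6 UMIs. Subcluster 2 had 1744, 1771, 2655 and 2285 CPM and subcluster 3 had 2045, 2038, 3371 and 2837 CPM, so every capillary-like library stood above every arterial-like one. By edgeR, Igfbp5 was lower in subcluster 4 (log2 fold change -4.68, SE 0.339, adjusted p = 3.29e-17) and higher in subclusters 2 (1.91, SE 0.142, adjusted p = 1.29e-16) and 3 (2.35, SE 0.143, adjusted p = 8.94e-20). The pooled level in subcluster 2 was 42.9 times that in subcluster 4 (95% counting interval 19.7 to 117). Subcluster 1 lay between, at 901 ± 73.4 CPM (SD, n = 4).

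Igfbp4 ran the other way. Arterial-like subcluster 4 had 338, 383, 348 and 385 CPM from 43 UMIs, a narrow range. The other 4 subclusters averaged 5.47 to 49.5 CPM, and no library of theirs passed 81.0 CPM. The pooled level in subcluster 4 was 7.68 (95% counting interval 4.05 to 15.6) to 58.9 (15.3 to 502) times that in the others. Igfbp4 entered this fit through subcluster 4 alone, so its p-values are not given. Igfbp3 was too sparse to test: it had 48.3, 128, 86.9 and 263 CPM in subcluster 4 from 19 UMIs, 0, 137, 72.3 and 69.7 CPM in subcluster 1 from 21 UMIs, and 4 UMIs in subcluster 2. In subcluster 3, 18 of the 20 Igfbp3 UMIs came from replicate 4.

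The ligand gene Igf2, which is no member and was singled out after its values were seen, lay almost wholly in the arterial-like cells. Subcluster 4 held 60 of the 67 endothelial Igf2 UMIs, at 627, 341, 348 and 628 CPM, and the other 4 subclusters had 1 to 3 UMIs each. Htra1, a secreted protease that can cut IGF binding proteins, was also noted after its values were seen. It had 421 ± 131 CPM in subcluster 4, against 27.4 to 53.0 CPM in subclusters 1, 2 and 3 and 485 ± 43.6 CPM in subcluster 0 (SD, n = 4).

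Within the endothelium, Igfbp7 was highest in subcluster 0, which carried podocyte markers. The other 4 subclusters averaged 1393 to 1603 CPM of these markers. The part of podocyte transcripts in these levels was not tested. Subcluster 0, in which 72.5% of cells carried another type's markers, had 7208, 6987, 6658 and 6632 CPM, against means of 268 to 570 CPM in the other 4. Igfbp7 passed the test in every subcluster: it was higher in 0 (log2 fold change 4.09) and lower in 1, 2, 3 and 4 (-0.65, -0.88, -0.74 and -1.83), with edgeR adjusted p from 3.8e-37 to 0.00318. The call in subcluster 3 was lost without replicate 2 (adjusted p = 0.054). Without the cells that carried another type's markers, subcluster 0 left the fit and the values in 1, 2 and 3 became 0.45, 0.13 and 0.27, with adjusted p from 0.0883 to 0.701. The arterial-like subcluster stayed lower, at -0.86 (adjusted p = 0.0196). Igf1r had 169, 183, 152 and 130 CPM in subcluster 0 and averaged 58.5 to 115 CPM in the others. Igf1r entered this fit mainly through subcluster 0, so its p-values are not given. In all, 1 member was higher and 2 lower in subcluster 4, against 9.8% and 9.01% of all genes. The higher one in subcluster 4 and 1 of the lower ones in subcluster 1 were Igfbp4, and 1 of the higher ones in subcluster 0 was Igf1r. The counts were 1 and 1 in subcluster 2 (14.3% and 9.01%), 1 and 1 in subcluster 3 (10.8% and 5.19%), 0 and 2 in subcluster 1 (9.17% and 8.16%) and 2 and 0 in subcluster 0 (23.5% and 19.7%). With total UMIs only the split of all genes was 367 higher and 464 lower in subcluster 0, in place of 443 and 371, and 240 and 127 in subcluster 1, in place of 173 and 154. With DESeq2 it was 188 and 111 in subcluster 4, in place of 185 and 170.

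**Figure D3:**
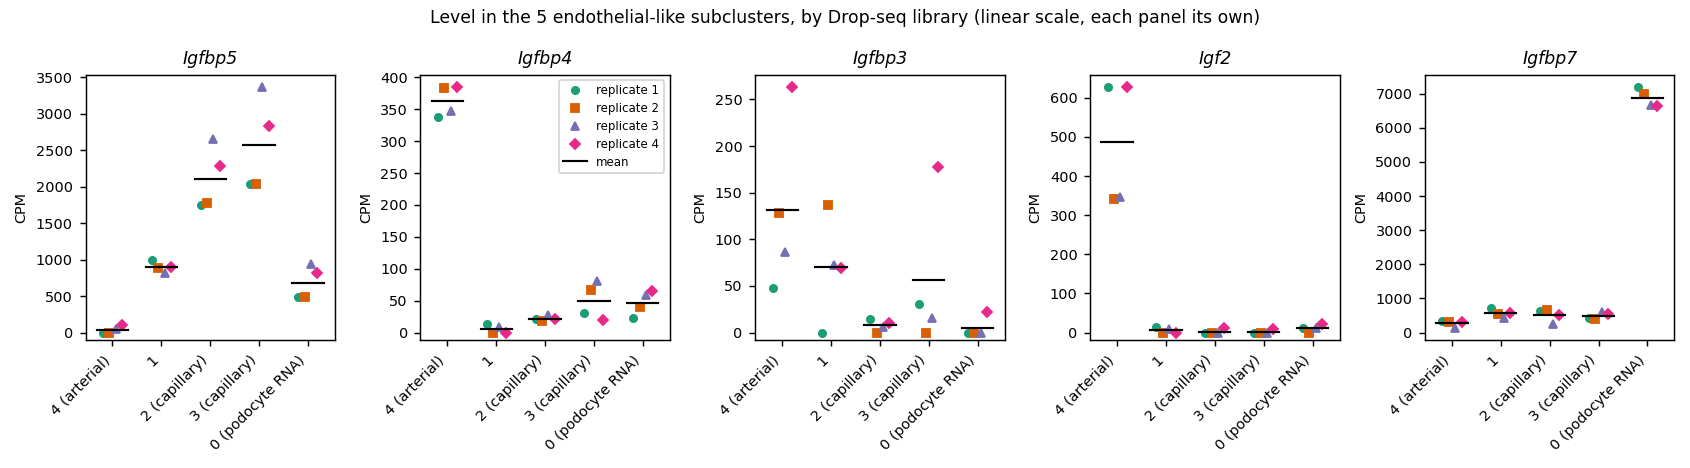
Level (CPM, linear axis, each panel with its own scale) of Igfbp5, Igfbp4, Igfbp3, Igf2 and Igfbp7 in the 5 endothelial-like subclusters, with a point per library and a line at the mean of 4. Igfbp5 is lowest and Igfbp4 and Igf2 highest in arterial-like subcluster 4, and Igfbp7 is high in subcluster 0, which carries podocyte transcripts.

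Among mural-like cells, Igfbp5, Igfbp7 and Igfbp4 were highest in the mesangial-like subcluster, which also carried endothelial transcripts. Subcluster 0 (73 cells) was mesangial-like, with Pdgfrb, Itga8, Gata3, Ptn and Serpine2 summing to 6831 CPM, against 1171 and 646 CPM in subclusters 2 (91 cells) and 3 (121 cells), which were smooth muscle and renin-like. Smooth muscle and renin markers summed to 35595 and 20945 CPM in subclusters 2 and 3. They were also present in subcluster 0, at 7487 CPM (2076 to 18231 CPM by library), above its mesangial sum. The 10 endothelial markers, none of them at 0, summed to 2938 CPM in subcluster 0 (1530 to 4308 CPM by library), against 163 and 316 CPM in subclusters 2 and 3, where 4 and 2 of the 10 were at 0. The part of these transcripts in the levels of the members was not tested beyond leaving out single cells that carried another type's markers. Subcluster 1 (33 cells) carried podocyte markers at 15273 CPM and was not tested. Igfbp5 had 2751, 3559, 2622 and 3527 CPM in mesangial-like cells, against 57.3, 714, 306 and 621 CPM in subcluster 2 and 416, 185, 365 and 554 CPM in subcluster 3. The groups do not overlap. The fit of 395 genes left replicate 2 out of the mesangial-like group, which had 5 cells there. In edgeR's fit, Igfbp5 was higher in mesangial-like cells (log2 fold change 3.02, SE 0.298, adjusted p = 6.75e-08) and lower in subclusters 2 (-1.40, SE 0.347, adjusted p = 0.00631) and 3 (-1.62, SE 0.330, adjusted p = 0.000533). Without replicate 3 the call in subcluster 2 was lost (adjusted p = 0.0701). Without cells carrying another type's markers, the log2 fold change in mesangial-like cells was 3.28 (edgeR adjusted p = 6.52e-09).

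Igfbp7 and Igfbp4 were also highest in this subcluster. Igfbp7 averaged 8491 ± 884 CPM in mesangial-like cells, against 4163 ± 756 and 4004 ± 479 CPM in subclusters 2 and 3 (SD, n = 4). It was higher in mesangial-like cells (log2 fold change 1.24, SE 0.209, edgeR adjusted p = 7.2e-05) and lower in subcluster 3 (-0.71, SE 0.198, adjusted p = 0.00749), where the call was lost without replicate 4 (adjusted p = 0.0559). Igfbp4, too sparse for the fit, had 478, 562, 546 and 271 CPM in mesangial-like cells from 29 UMIs, against 2 UMIs in subcluster 2 and 3 UMIs in subcluster 3. The pooled ratios were 18.2 (95% counting interval 4.59 to 157) and 15.1 (4.68 to 77.5). Both tested members were higher in mesangial-like cells, against 14.4% of genes (17.0% were lower). In subcluster 2, 1 was lower, against 5.57% of genes (11.1% were higher, and DESeq2's split was 33 higher and 7 lower in place of 44 and 22), and in subcluster 3, 2 were lower, against 13.9% (16.7% were higher). Igf1r averaged 106 CPM in mesangial-like cells from 8 UMIs and 97.6 to 139 CPM in the smooth muscle and renin-like ones.

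Within tubular-like cells, Igfbp7 was low in the intercalated-like and thick ascending limb-like subclusters, and most Igf1 UMIs lay in distal convoluted-like ones. Subclusters 0, 1 and 4 were distal convoluted-like, 3 connecting and principal-like, 5 intercalated-like and 6 thick ascending limb-like. Igfbp7 averaged 3696 ± 340, 3207 ± 136 and 3842 ± 444 CPM in the distal convoluted-like subclusters and 3310 ± 591 CPM in subcluster 3, against 785 ± 245 CPM in intercalated-like cells (SD, n = 4). Thick ascending limb-like cells, only 18 of them, were also low, at 1480 ± 569 CPM from 45 UMIs (SD, n = 4). The pooled level in subcluster 0 was 4.52 times that in intercalated-like cells (95% counting interval 3.61 to 5.73), a ratio with no test. Subcluster 2, with 7496 CPM of podocyte markers, against 327 to 600 CPM in the others, had 5956 ± 950 CPM and was the 1 subcluster called (log2 fold change 0.79, SE 0.105, edgeR adjusted p = 1.45e-08), where 17.9% of genes were higher and 13.2% lower. Igfbp7 did not pass edgeR's test in subclusters 0, 1, 3 and 4 (adjusted p from 0.0541 to 0.658). The shares of genes called higher and lower were 6.16% and 5.32% in subcluster 0, 4.86% and 0.973% in 1, 8.82% and 9.27% in 3, and 6.03% and 6.55% in 4. With total UMIs only, subcluster 4 had 133 higher and 88 lower, in place of 93 and 101. Igf1 had 35 UMIs in subcluster 0, 13 in 1, 4 in 4, 5 in 2, 3 in 3, and 0 in 5 and 6. Subclusters 0, 1 and 4 also held most UMIs of all genes, with 775551, 306999 and 229928 of the 2093064 in tubular-like cells. The pooled Igf1 level in subcluster 0 was 4.50 times that in subcluster 3 (95% counting interval 1.42 to 22.9). It was 1.07 times that in subcluster 1 (0.550 to 2.20) and 2.59 times that in subcluster 4 (0.928 to 10.05). Replicate 2 gave 26 of the 35 UMIs in subcluster 0 and all 3 in subcluster 3, and replicate 1 gave 0 in both. The 0 UMIs in subcluster 5 allow up to 33.2 CPM and those in subcluster 6 up to 104.8 CPM, so little can be read from them.

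**Figure D4:**
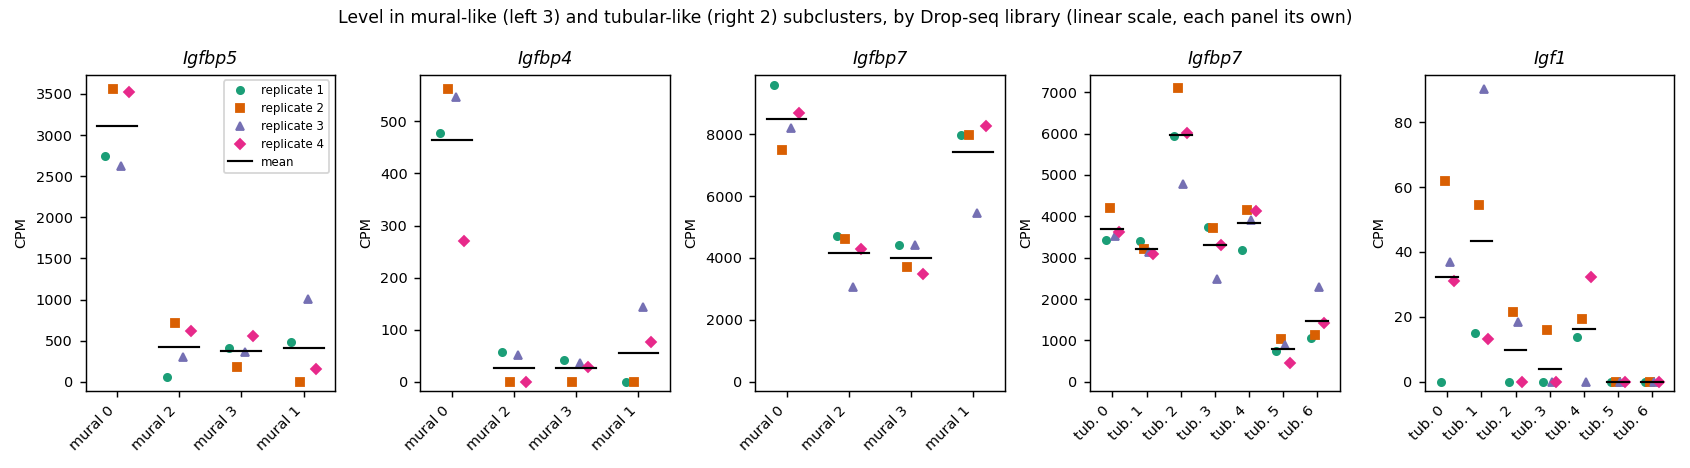
Level (CPM, linear axis, each panel with its own scale) of Igfbp5, Igfbp4 and Igfbp7 in mural-like subclusters, and of Igfbp7 and Igf1 in tubular-like subclusters, with a point per library and a line at the mean of 4. Mesangial-like subcluster 0 stands above the smooth muscle and renin-like subclusters 2 and 3 for all 3 genes, and tubular subcluster 2, which carries podocyte transcripts, is highest for Igfbp7.

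The rest of the pathway was spread over the cell types. Of 56 other genes of the system, 29 were tested. Whether each of them passed the count filter only through the type where it is high was not checked. In endothelial-like cells 11 were higher and 3 lower (27.7% and 19.2% of all genes), with a median log2 fold change of 0.21, beside 0.03 over all genes. Stc1, a secreted inhibitor of PAPP-A, led (3.02, SE 0.447), followed by Cish, a feedback inhibitor of cytokine signalling (2.63, SE 0.269), the phosphoinositide 3-kinase subunit gene Pik3r3 (2.51) and the transcription factor gene Foxo1 (1.87, SE 0.318), with edgeR adjusted p from 1.25e-14 to 4.29e-07. The receptor adaptor gene Irs2 (-1.78, SE 0.228) and Pik3r1 (-0.62, SE 0.218) were lower. In mural-like cells 5 were higher and 1 lower (11.8% and 8.95% of all genes), with a median of 0.31, beside -0.12 over all genes. Irs2 was higher there at 248 ± 60.5 CPM (log2 fold change 1.72, edgeR adjusted p = 2.76e-09). Igf2r, the receptor that clears IGF2, was higher at 74.5 ± 17.9 CPM (1.69). Its p-value is not given, since it may have entered the fit mainly through mural-like cells. Pdpk1 was lower (-1.78, edgeR adjusted p = 0.0258) from few UMIs, 1, 0, 3 and 0 in mural-like subclusters 0, 1, 2 and 3.

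In podocyte-like cells 6 of the 29 were higher and 11 lower (26.0% and 19.5% of all genes, a split that DESeq2 turns round, to 1359 higher and 2231 lower), with a median of -0.26, beside 0.03 over all genes. Htra1 was higher at 679 ± 75.2 CPM (log2 fold change 2.04, SE 0.101, edgeR adjusted p = 2.84e-33), and Gab1 (1.19), Akt2 (0.72) and Foxo3 (0.69) were higher by less. Stc1 (-5.18, from 4 UMIs) and the adaptor gene Grb14 (-4.52, from 20 UMIs) were lower. Parietal epithelial-like cells shared the Htra1 call (1.27, SE 0.192, edgeR adjusted p = 1.31e-07), the 1 call of the 29 there (8.08% of all genes were higher and 3.08% lower), with a median of -0.26, beside -0.01 over all genes. These cells also carried podocyte markers, as given above, and the part of podocyte transcripts in their Htra1 level was not tested. In tubular-like cells 8 were higher and 5 lower (26.8% and 25.1% of all genes), with a median of 0.00, beside -0.04 over all genes. Grb14 was higher at 174 ± 25.8 CPM (4.21), as were Socs2 (2.46), Stc1 (2.41) and the growth hormone receptor gene Ghr (1.93), and Htra1 (-2.08) was lower. Of the growth hormone axis, 3 of 4 tested genes (Socs2, Ghr and Cish) were higher in tubular-like cells, beside 26.8% of all genes, 2 of 4 were higher in endothelial-like cells, beside 27.7%, and 3 of 4 were lower in podocyte-like cells, beside 19.5%.

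Across 20 library and type sums, the genes whose levels most resembled each member's were found among 10683 genes by Pearson's r on log2(CPM + 10). This is a description, since sums of a type and of a library are not independent. Igfbp5 was nearest to Esam (0.983), Lrrc32 (0.981), Tbx3 (0.972), Cdkn1a (0.964) and Apold1 (0.964). Igfbp4 was nearest to Adamts5 (0.953), Akap12 (0.934), Ecm1 (0.931), Mgp (0.915) and Pdlim7 (0.911). Igfbp7 was nearest to Gpx8 (0.934), Sdc2 (0.901), Lrrc1 (0.901), Kank1 (0.883) and Fam184a (0.872), and Igf1r to Tns3 (0.905), Mob2, Tnfaip8 (0.892 each), Kirrel (0.884) and Mxra8 (0.880).

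The bulk libraries compare what dissociation, sorting and fixation left with the whole glomerulus. They are 1 library each, of 24555632 dissociated and 28407317 whole reads on genes, so the differences have no replicate check and no p-value. Levels are TMM-scaled CPM, and log2 ratios are of dissociated over whole with a prior count of 2. Among genes with at least 100 counts, 10.6% of 12692 were over 2-fold higher in dissociated cells and 19.1% over 2-fold lower. Of the 8 members 6 reached 100 counts, and 2 of these were higher and 3 lower.

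Igfbp5, Igfbp4 and Igfbp3 were lower in the dissociated cells. Igfbp5 had 5952 reads and 269 CPM in dissociated cells, against 195046 reads and 6180 CPM in whole glomeruli, a log2 ratio of -4.52. Per kilobase of exon this was 44.8 in dissociated cells against 1029 in whole glomeruli. Igfbp4 had 14.7 CPM in dissociated cells against 300 CPM in whole glomeruli (-4.35), and Igfbp3 had 8.96 against 30.6 CPM (-1.76). The mesangial markers summed to 180 CPM in dissociated cells against 3311 CPM in whole glomeruli, the arterial markers to 302 against 1214 CPM, and the 10 endothelial markers to 1909 against 6125 CPM. The 5 glomerular capillary markers summed to 6267 CPM in dissociated cells against 6170 CPM in whole glomeruli, although 4 of the 5 were over 2-fold lower. The part of these cell types in the differences of the binding protein genes was not tested. In bulk RNA, fewer cells of a type and less RNA per cell cannot be told apart. Fixation, sorting and RNA input also differ between the libraries and cannot be told apart from dissociation.

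Igfbp7 and Igfbp2 were higher in the dissociated cells. Igfbp7 had 3952 CPM in dissociated cells against 1877 CPM in whole glomeruli (log2 ratio 1.07), and per kilobase of exon 3269 against 1552. The podocyte markers summed to 45947 CPM in dissociated cells against 24165 CPM in whole glomeruli. Scaled by total counts alone, the median log2 ratio of all genes is -0.32 in place of -0.02, and 759 genes are over 2-fold higher and 3180 over 2-fold lower in place of 1347 and 2423. The Igfbp7 log2 ratio is then 0.77, under 2-fold. Igfbp2 had 106 reads in dissociated cells against 38 in whole glomeruli (4.80 against 1.204 CPM, log2 ratio 1.93). Igf1r had 113 CPM in dissociated cells against 170 CPM in whole glomeruli (-0.59). Igfbp6 (25 against 21 reads) and Igf1 (22 against 53 reads) were under 100 counts.

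Of the other IGF genes in bulk, Irs2 (3.06), Cish (1.55) and Htra1 (1.46, at 1065 CPM in dissociated cells against 386 CPM in whole glomeruli) were higher in the dissociated library. Pik3r1 (-2.12), Foxo1 (-1.95), Ghr (-1.86), Igf2 (-1.78, with 80 reads in dissociated cells against 399 in whole glomeruli) and Insrr (-1.07) were lower.

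**Figure D5:**
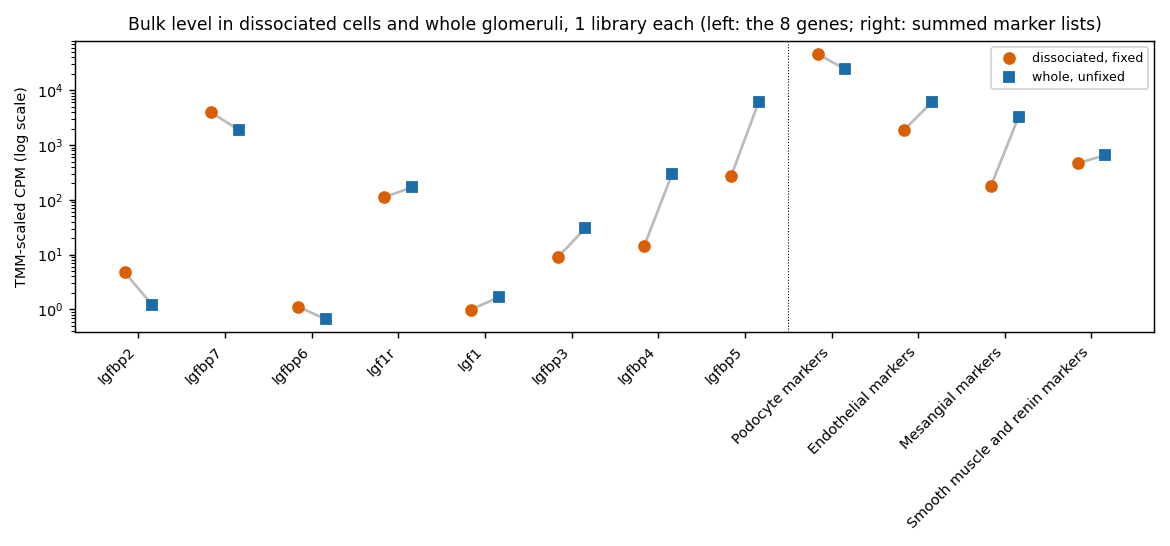
Bulk level (TMM-scaled CPM, log axis) in dissociated, fixed cells and in whole, unfixed glomeruli, 1 library each, for the 8 genes and for 4 summed marker lists. Igfbp5 and Igfbp4 show the widest gaps among the members, with 269 and 14.7 CPM in dissociated cells against 6180 and 300 CPM in whole glomeruli, beside mesangial markers at 180 against 3311 CPM.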

How the data were processed

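The authors deposited a table of counts for each Drop-seq library (UMIs, since the labels' protocols name Drop-seq), with a row per gene and a column per barcode, and a table of read counts per gene for each bulk library. STAR and HTSeq are named in the submitters' processing notes, with no version. The genome build, annotation and strand setting are not given in the sources used here. In bulk, 6.14% of dissociated and 9.68% of whole reads lay outside features, and such lines stayed out of totals. The members and lists were chosen with earlier results of these data known.

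Cells were clustered with scanpy 1.11.5 (2000 variable genes, 30 components, Leiden resolution 1), with 64 member and pathway genes held out, 61 of which have a row. A cluster was named from at least 3 markers of its list. No doublet caller was run. Leaving out cells that carry another type's markers was an alternative. Among all barcodes 15 occurred in more than 1 library, 3 of them kept. UMIs were summed per library and type (at least 20 cells, or 10 for subclusters, in 3 libraries or more). The test was edgeR's (4.0.16), quasi-likelihood with TMM and filterByExpr. Sums of a library share its cells and preparation, which is the source of the pairing, so library was a block. CPM is relative to a type's total. In simulated data for endothelial-like cells, 61.9% of 2-fold changes (42 tested) and 100% of 4-fold changes (64 tested) were recovered. For subclusters, 52.6% (mural-like) to 90.6% (endothelial-like) of tested 2-fold changes were recovered. Changes that failed the count filter are not in these shares, and the simulation had a fixed spread and no library effect. DESeq2 1.42.0, other scalings, filters, resolutions and each library left out were alternatives. Named were all members, per type up to 4 higher and 2 lower pathway genes, in bulk up to 8, and per member the 5 genes most alike. Some genes that this rule names are not reported here. Intervals are exact Poisson or binomial ones at 95% and cover counting error only, and the floor for a count of 0 is 3.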

Additional observations from a re-analysis of the deposited data

Results flagged for a closer look

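Of 68 groups of 4 libraries checked for a library that stands apart, 1 had such a value, where chance gives about 1 in 20. Igfbp7 in mural-like subcluster 1, the small group that carries podocyte markers and was not tested, was 5438 CPM in replicate 3, against 7959 to 8246 CPM in the other 3 libraries. The gap to the nearest library was 0.898 of the whole range, and replicate 3 had 4 cells in this subcluster.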

How the results depend on the processing

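Of the 18 calls of members across cell types, 17 were kept with DESeq2, 17 with no replicate block, 18 with total UMIs only, and 15 to 17 with each library left out, the 2 calls of Igf1 being untested without replicate 3. With no replicate block 9 were higher and 8 lower, in place of 9 and 9, and the block changed no call in the subclusters. Leaving out each library gave 8 to 9 higher and 7 to 8 lower calls across types, 4 to 5 and 5 to 6 in endothelial-like subclusters, and 2 and 2 to 3 in mural-like ones. With a mitochondrial limit of 10%, 5 calls were lower, since 12 of the 18 were still tested, and all 12 were kept. Without cells carrying another type's markers, endothelial-like subclusters gave 3 higher and 3 lower calls in place of 5 and 6, 9 of the 11 were tested and 6 kept, and Igfbp7 in subclusters 1, 2 and 3 turned to 0.45, 0.13 and 0.27. DESeq2 added 1 lower call in tubular-like subclusters (Igfbp7 in subcluster 1, log2 fold change -0.36). Total counts only left 1 member over 2-fold higher in bulk, in place of 2.

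With total UMIs only, the median log2 fold change of all genes was -0.36 in tubular-like, 0.16 in parietal epithelial-like and 0.06 in mural-like cells, in place of -0.04, -0.01 and -0.12, and with DESeq2 it was -0.11 in podocyte-like cells, in place of 0.03. Igfbp7 in mural-like cells, not called at -0.05, changed sign with DESeq2 (0.0722), total UMIs only (0.133), a mitochondrial limit of 10% (0.0574), resolution 0.6 (0.0246) or 1.5 (0.238) and without cells carrying other markers (0.143), and ranged from -0.134 to 0.0970 with each library left out. Igfbp7 in tubular-like cells turned to 0.136 without cells carrying other markers and to 0.0428 at resolution 1.5, and in parietal epithelial-like cells to -0.155 against all other cells summed. Igfbp2 in podocyte-like cells, not called at -0.16, ranged from -0.436 to 0.0503 with each library left out and was 0.0416 with no filter. The cause of these changes was not tested. Depth limits Igfbp3, Igfbp6, Igfbp4 and Igf1, whose 26 to 136 UMIs in kept cells leave wide counting intervals. No paired analysis was possible for the bulk libraries because each group is 1 library.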

Other observations

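Igf1 was also found in barcodes left out for their mitochondrial share. The 584 barcodes over the limit held 28 of its 105 UMIs, at 26.6 CPM, against 28.7 CPM in kept tubular-like cells and 4.37 CPM in all kept cells. In the same barcodes Igfbp7 stood at 3004 CPM and Igfbp5 at 25.6 CPM.

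Within podocyte-like cells, the 9 clusters averaged 10203 to 13169 CPM for Igfbp7 and 123 to 265 CPM for Igf1r. The same cluster of 426 cells was highest for both, at 13169 ± 1187 CPM for Igfbp7 and 265 ± 52.0 CPM for Igf1r (SD, n = 4 libraries). This cluster was led by Gm15564, Gm23935, Lars2 and Neat1, and its median mitochondrial share was 6.66%, against 3.53 to 5.70% in the other 8. Its cells had a median of 709 UMIs, against 599.5 to 1814 in the others. The part of these measures in its levels was not tested.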
